A study of Homo sapiens with 4 samples.

Results

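Chromosome 17q was examined in nucleosome maps of the neuroblastoma cell line BE(2)C. A nucleosome was assigned to 17q when its dyad, the centre of the 147 bp it wraps, lay on chromosome 17 from base 25800001 (hg19) to the end of the chromosome at base 81195210. Reads were summed in 100-kb bins, and 553 of the 30946 bins of the genome were on 17q. Control replicate 1 had 227763 of its 10527010 nucleosomes there, control replicate 2 had 244081 of 12120711, MYCN knockdown replicate 1 had 228426 of 10677252, and MYCN knockdown replicate 2 had 244352 of 12178724. The short arm, 17p, was taken as bases 1 to 22200000 (222 bins) and served as the comparison.

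BE(2)C is an established human neuroblastoma line with amplified MYCN, and its genotype is otherwise labelled wild type. All 4 libraries came from cells given 80 nM siRNA with Lipofectamine for 6 h, either a control siRNA (2 libraries) or an siRNA against MYCN (2 libraries). The labels give this concentration, and the study's methods state a lower final one once medium had been added. By those methods the cells were collected on the day after transfection, so the 6 h are not the time of harvest. All libraries are thus from 1 cell line. Crosslinked chromatin was digested with micrococcal nuclease (MNase), which removes the DNA between nucleosomes, and the protected fragments were sequenced as read pairs. Nucleosomal DNA holds no transcripts, so neither the knockdown nor markers of the cell type could be checked in these libraries.

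Gain of the distal long arm of chromosome 17 is among the most frequent chromosomal changes in high-risk neuroblastoma, and it often arises by unbalanced translocation, with the breakpoint differing between tumours. The gained segment carries genes with roles in survival, cell division and DNA repair, among them BIRC5 and PPM1D. In MNase-seq the number of reads over a region follows the amount of its DNA in the sample as well as its nucleosomes, its base composition and how uniquely it can be mapped. Levels below are read levels. No input DNA or karyotype was used here, so the number of copies of a region cannot be told apart from these other influences.

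Depth differed with the replicate number. The lists held 147726171 and 147370973 reads in the replicate 1 libraries of control and knockdown, and 242544884 and 239257113 in the replicate 2 libraries. A nucleosome needed at least 6 reads to be listed, so the shallow libraries (replicate 1) list fewer nucleosomes where reads are few. The read level of a bin is its summed read count divided by the median autosomal 100-kb bin of the same library, which held 5116 and 8414 reads in the control and 5162 and 8372.5 reads in the knockdown libraries. The level of a region is the median over its bins. Where 4 values stand in a row, they belong to control replicate 1, control replicate 2, knockdown replicate 1 and knockdown replicate 2, in that order.

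The main feature of 17q was a single sharp step in read level within its first few megabases. Sequences of 2 nucleosomes are shown first. One lies just beyond this step, and the other is among the best positioned nucleosomes of 17q. Both are written 5′ to 3′ on the plus strand of GRCh37, with the 21 bases around the dyad in capitals.
first nucleosome after the step, chr17:31232219-31232365: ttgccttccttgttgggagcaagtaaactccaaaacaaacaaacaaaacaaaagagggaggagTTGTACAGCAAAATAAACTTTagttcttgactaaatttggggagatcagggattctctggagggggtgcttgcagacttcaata
nucleosome near CCL16, chr17:34296473-34296619: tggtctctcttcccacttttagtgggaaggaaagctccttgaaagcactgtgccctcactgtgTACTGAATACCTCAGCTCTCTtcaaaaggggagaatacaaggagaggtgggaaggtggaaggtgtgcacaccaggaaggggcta

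The nucleosome after the step was the nearest there whose dyads lay within 30 bp of each other in all 4 libraries. It lay in an intron of H2BN1, a gene of a variant histone H2B. Its dyad lay 291 bp after base 31232001, where 1-kb bins placed the step. With 5-kb bins the step of knockdown replicate 2 lay at 31235001, beyond this nucleosome. The nucleosome held 10 and 28 reads in the control and 14 and 16 in the knockdown libraries, higher in knockdown at replicate number 1 and lower at number 2. Its capitals occur at 2 places on chromosome 17 when both strands are counted.

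The other one came from the 644 nucleosomes of 17q whose dyads lay within 5 bp in all 4 libraries with at least 20 reads in each. Their median fuzziness, the standard deviation of read midpoints around the dyad, was 32.7 bp, and the lowest was 15.5 bp. One with 16.99 bp lay in the first part of CSNK1D, a casein kinase, 128 bp from its transcription start site (TSS) and overlapping an untranslated region. The one shown, with 17.1 bp, lay outside annotated genes 11987 bp from the TSS of CCL16, a chemokine gene, and held 36, 28, 23 and 35 reads in the 4 libraries. Its capitals occur at 1 place on the chromosome.

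17q as a whole had a higher read level than 17p. The level of 17q was 1.41 in both control libraries and 1.35 and 1.37 in the knockdown libraries. The level of 17p was 0.650 and 0.712 in the control and 0.636 and 0.697 in the knockdown libraries. The ranges did not overlap, and 17q was higher in 4 of 4 libraries. The difference was 0.712 ± 0.0380 (SD, n = 4 libraries). An exact sign-flip permutation test over libraries, two-sided, gave p = 0.125, which is the smallest p that 4 libraries allow.

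17q was not at a single level. Least-squares segmentation of the log2 level placed the largest step of chromosome 17 at base 31200001 in 100-kb bins, in each of the 4 libraries. The 54 bins before it (5.40 Mb, here proximal 17q) had levels of 0.661 and 0.713 in the control and 0.625 and 0.697 in the knockdown libraries. The 499 bins after it (49.9 Mb, here distal 17q) had levels of 1.45 and 1.44 in the control and 1.38 and 1.39 in the knockdown libraries. Since this split was chosen from the levels, both are given as a description, with no test. Distal 17q stood 2.19, 2.03, 2.21 and 1.99 times above proximal 17q in the 4 libraries, a mean of 2.10 ± 0.110 (SD, n = 4). Proximal 17q and 17p had mean levels of 0.674 ± 0.0393 and 0.674 ± 0.0366 (SD, n = 4), and their ratio was 1.02, 1.001, 0.982 and 0.9997. Of the 499 distal bins, 493 (98.8%) lay above the 95th percentile of 17p bins, a level of 0.824. Of the 54 proximal bins, 48 lay between the 5th and 95th percentiles of 17p, 4 lay below and 2 above. The segmentation divided 17q further, into 21 segments in the mean of the libraries and 8 with a penalty factor of 10, so distal 17q was not at 1 level.

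**Figure D1:**
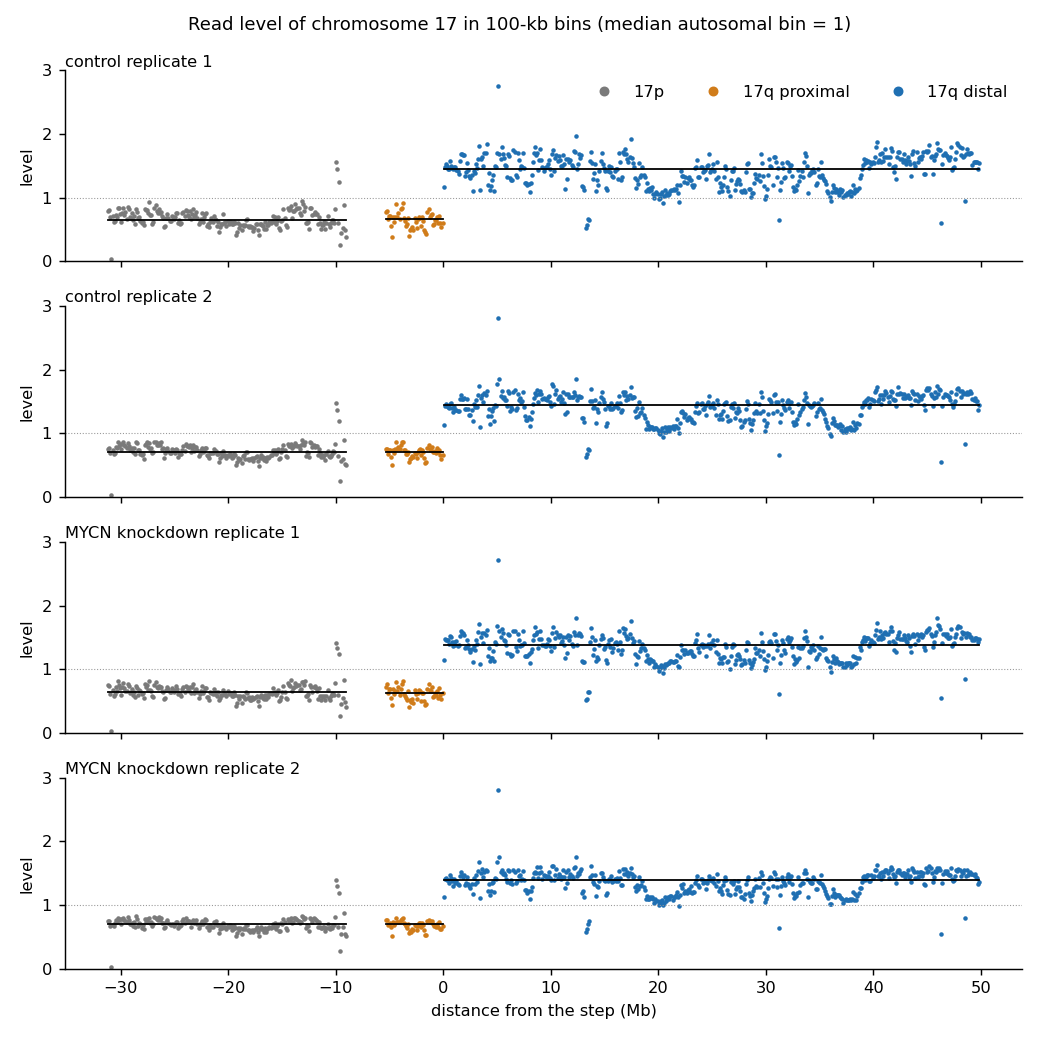
Read level in 100-kb bins of chromosome 17 in each library, against the distance from the step at base 31232001 in Mb. Points are bins, black lines are the medians of 17p (grey), proximal 17q (orange) and distal 17q (blue), and a dotted line marks the median autosomal bin. In all 4 libraries the bins of proximal 17q lie at the 17p level and the level rises at the step, by a ratio of medians of 1.99 to 2.21.

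The ratio varied with depth. It was larger in both replicate 1 libraries than in both replicate 2 libraries. When only nucleosomes with at least 12 reads were summed, an alternative chosen after seeing the data, it was 4.78 and 5.39 in the replicate 1 libraries of control and knockdown and 2.44 and 2.47 in the replicate 2 libraries. A higher minimum thus raised the ratio, more so in the shallow libraries. The ratio of the reads that were present before the minimum of 6 was applied was not measured.

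The step was placed more finely with smaller bins. In 10-kb bins the level was 0.521, 0.552, 0.510 and 0.606 in the last bin before the step (31220001 to 31230000). In the next bin it was 1.23, 1.24, 1.23 and 1.22. In 1-kb bins the largest change lay at base 31232001 in each of the 4 libraries, with 2.31 times as many reads after it as before it within 200 kb of the first estimate on each side. With 5-kb bins it lay at 31230001 in 3 libraries and at 31235001 in knockdown replicate 2. Before the step, 2 bins stood out in all libraries. The bin from 31140001 to 31150000 had a mean level of 1.24 and that from 31210001 to 31220000 had 0.904.

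**Figure D2:**
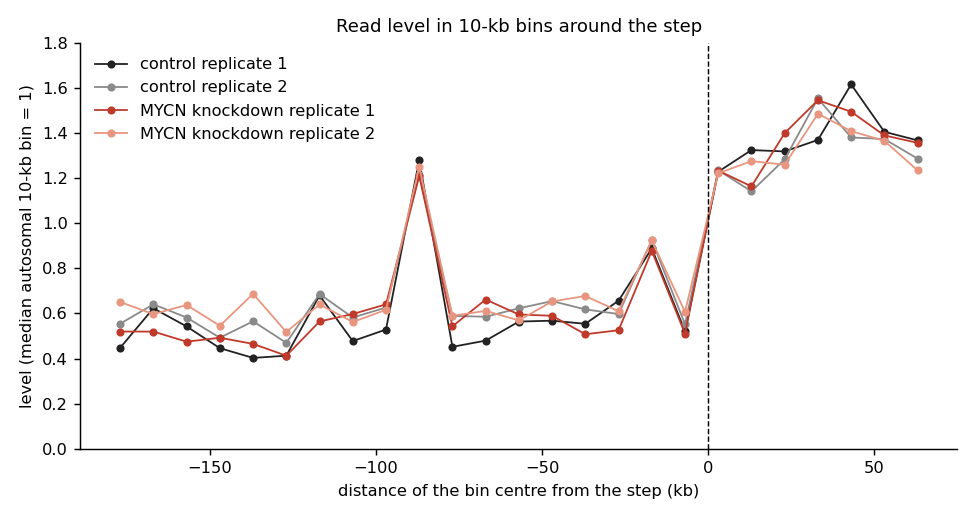
Read level in 10-kb bins around the step, against the distance of the bin centre from base 31232001 in kb. Each line is a library and the dashed line is the step. The mean level goes from 0.547 in the last bin before the step to 1.23 in the bin that contains it, and a single bin of level 1.24 lies on the low side.

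The step lay within H2BN1 (31222451 to 31233604, plus strand). The nearest end of MYO1D, an unconventional myosin, lay 27806 bp before the step, so this gene lay in the segment of low level. The nearest end of TMEM98, a membrane protein, lay 22927 bp after the step. That of SPACA3, a sperm acrosome lysozyme-like protein, lay 65393 bp, and that of ASIC2, an acid-sensing ion channel gene, 108104 bp after it. ASIC2 is on the minus strand, so its TSS lies farther from the step. By the position of the TSS, 78 protein-coding genes lay on proximal 17q, 762 on distal 17q and 347 on 17p.

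Base composition moved with the level along distal 17q. Across its 499 bins, Pearson's r of level with GC content was 0.81, 0.77, 0.75 and 0.71, a description over bins that share a library. In 5-Mb windows beyond the step the mean level was lowest, 1.12, from 50000001 to 55000000, where the median GC content was 37.5%, and highest, 1.58, from 75000001 to 80000000, where it was 53.4%. Division by the median level of autosomal bins of the same GC content reversed that order, to 1.29 and 1.08. The same correction kept the step. The corrected level was 1.12 ± 0.00814 on distal 17q, 0.543 ± 0.0321 on proximal 17q and 0.536 ± 0.0244 on 17p (SD, n = 4), and the ratio of distal to proximal was 2.07 ± 0.119. The median GC content was 44.8% on proximal 17q, 45.2% on distal 17q and 45.3% on 17p, against 39.8% on the other autosomes.

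Against the other chromosome arms, the height of distal 17q depended on this correction. Among 40 arms and segments, distal 17q ranked 4 by level and 13 by corrected level. Proximal and distal 17q were cut at the step seen in these levels, whereas the other arms were not cut, so their ranks are a description. After correction, 3q had the highest level (1.26), and the arms next to distal 17q in the order were chromosome 15 (1.15), 20q (1.11) and 16q (1.11). Distal 17q ranged from 1.11 to 1.13 over libraries, which overlapped 20q and 16q but not chromosome 15. Proximal 17q and 17p had the lowest mean corrected levels of all, with ranges of 0.513 to 0.575 and 0.512 to 0.559. Both ranges overlapped those of 18p (0.517 to 0.594), 18q (0.543 to 0.614), 11p (0.547 to 0.614) and 1p (0.554 to 0.623). Each range spans shallow and deep libraries, and these arms were not compared within a library. On 17p the corrected level was 0.517 and 0.512 in the shallow and 0.559 and 0.554 in the deep libraries. Low levels near that of proximal 17q were thus found on other arms too.

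Within distal 17q, only 6 bins had a level at or below the 95th percentile of 17p. Of these, 4 were free of unknown bases and are not described further here. The other 2 bins, one with POLG2, DDX5 and MILR1 (0.642) and one in RBFOX3 (0.559), were each 50% unknown bases in the reference. The 10-kb bins with POLG2 itself (62470001 to 62500000) had mean levels of 1.07 to 1.22, so the low bin came with the reference gap.

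The highest bin of 17q lay from 36300001 to 36400000, with levels of 2.75 and 2.82 in the control and 2.71 and 2.80 in the knockdown libraries. It held TBC1D3 and TBC1D3L, members of a family of near-identical hominoid genes whose reads cannot be assigned with certainty to single copies. The next 2 were far lower, at 1.85 in the bin with ARHGAP27 and PLEKHM1 and 1.75 in RBFOX3, with GC contents of 50.5% and 58.4%. The lowest 3 bins of 17q all lay proximal to the step. They were in NLK, a kinase of Wnt signalling (0.462), in SSH2, a cofilin phosphatase (0.484), and in NF1 (0.491). The NLK bin had 0.387 and 0.507 in the control and 0.443 and 0.511 in the knockdown libraries, and the NF1 bin had 0.458 and 0.535 against 0.440 and 0.532. In all 3 bins the replicate 2 library was the higher in both groups.

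Genes of a list of gain candidates on 17q were placed on either side of the step. The list was made here and also holds NF1, a tumour suppressor. Of 26 such candidates, 25 lay on distal 17q, as did 762 of all 840 protein-coding genes of 17q, so the count is near that of genes in general. On distal 17q the bins holding their TSS had mean levels of 1.15 to 1.65. BIRC5, which encodes survivin, an inhibitor of apoptosis, had levels of 1.72 and 1.72 in the control and 1.61 and 1.53 in the knockdown libraries. PPM1D, the WIP1 phosphatase that dampens p53 signalling, had 1.29, 1.40, 1.24 and 1.38. NME1, a nucleoside diphosphate kinase, had 1.28, 1.40, 1.21 and 1.32, and IGF2BP1, an RNA-binding protein, 1.33, 1.40, 1.34 and 1.38. TBX2, a T-box transcription factor, had 1.53, 1.52, 1.43 and 1.39, and SOX9, a transcription factor of neural crest derivatives, 1.45, 1.42, 1.43 and 1.37. BIRC5 was thus above PPM1D, NME1 and IGF2BP1 in every library. After GC correction the mean levels of the 6 genes were 1.099, 1.11, 1.09, 0.985, 0.996 and 1.06 in the order of naming, with PPM1D above BIRC5.

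NF1, the RAS-inactivating tumour suppressor, was the member of that list on the low side. The bin with its TSS had levels of 0.493 and 0.612 in the control and 0.494 and 0.611 in the knockdown libraries, below every distal candidate in every library. SUZ12, a subunit of the Polycomb complex PRC2, and PHF12, a subunit of a histone deacetylase complex, lay there too, at mean levels of 0.638 ± 0.0789 and 0.773 ± 0.0560 (SD, n = 4). The other 13 of 15 chromatin genes lay on distal 17q at 1.19 to 1.66. Of 12 DNA repair genes, POLDIP2, a partner of DNA polymerases, lay proximal at 0.651 ± 0.0443 and 11 lay distal. BRCA1, of homologous recombination, had a mean level of 1.37 ± 0.0625 and BRIP1, the helicase that partners BRCA1, 1.11 ± 0.0450 (SD, n = 4). The BRIP1 bin was the lower by level and the higher after GC correction (1.248, against 1.14). The 10 HOXB genes, which pattern the body axis, lay within 3 neighbouring bins at mean levels of 1.45, 1.39 and 1.47.

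More nucleosomes were listed per Mb on 17q than on 17p, and each held more reads. There were 4119 and 4414 nucleosomes per Mb of 17q in the control and 4131 and 4419 in the knockdown libraries, against 3332 and 4121 in the control and 3316 and 4132 in the knockdown libraries on 17p. The difference was 545.5 ± 295.4 per Mb (SD, n = 4) and came to 787.1 and 815.1 in the shallow and 292.5 and 287.0 in the deep libraries. The mean read count per nucleosome was 16.6 and 25.6 on 17q in the control and 16.02 and 24.5 in the knockdown libraries, and 10.3, 14.7, 10.0 and 14.2 on 17p in the same order. 17q was higher in 4 of 4 libraries, by 8.40 ± 2.58 reads (exact sign-flip permutation test, two-sided, p = 0.125, the smallest possible, for both measures). With nucleosomes of at least 12 reads the first difference was 1689 per Mb. On 17p, 48.8% and 51.8% of the nucleosomes of the replicate 1 libraries held under 10 reads, against 15.6% and 16.05% on 17q. Proximal 17q had the values of 17p, with 3256, 4119, 3249 and 4136 nucleosomes per Mb and 10.1, 14.4, 9.80 and 13.9 reads per nucleosome.

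Nucleosomes of 17q were slightly fuzzier than those of 17p. Mean fuzziness was 34.8 and 36.5 bp on 17q in the control and 34.8 and 36.5 bp in the knockdown libraries, and 33.5, 35.3, 33.4 and 35.2 bp on 17p. The difference, 1.32 ± 0.0677 bp (SD, n = 4), was positive in 4 of 4 libraries (exact sign-flip permutation test, two-sided, p = 0.125). Fuzziness moved with read count, so it was also compared at matched counts. Among nucleosomes of 6 to 8 reads the difference was 1.45 and 1.05 bp in the control and 1.45 and 1.44 bp in the knockdown libraries. Among those of 15 to 20 reads it was 0.0065 and 1.02 bp in the control and 0.12 and 0.98 bp in the knockdown libraries. Among those of 31 to 50 reads it ranged from -0.13 to 0.21 bp and was negative in both replicate 1 libraries. At high read counts the fuzziness of the arms therefore differed in sign between libraries, and at low counts 17q was fuzzier in every library. Equal counts are not equal relative to the level of each arm. In control replicate 1, 15.6% of the nucleosomes of 17q held under 10 reads, against 48.8% on 17p. The matching thus does not remove the difference in level, and its part in these values was not tested.

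Neighbouring dyads of listed nucleosomes were closer on 17q. The smallest dyad distance on chromosome 17 was 147 bp in each library, so listed nucleosomes did not overlap. The window used below thus held no shorter distances, and its means describe listed nucleosomes only. Over distances of 100 to 300 bp the mean was 207.4 and 206.6 bp in the control and 207.2 and 206.7 bp in the knockdown libraries on 17q, against 209.3, 207.9, 209.5 and 208.3 bp on 17p. The difference was -1.77 ± 0.383 bp (SD, n = 4) and was negative in 4 of 4 libraries (exact sign-flip permutation test, two-sided, p = 0.125). Proximal 17q was again like 17p, with a mean of 208.0 to 209.5 bp over libraries, and distal 17q lay between 206.4 and 207.2 bp. With nucleosomes of at least 12 reads the difference was -3.33 bp, so it grew when more nucleosomes of few reads were left out. The part of missed nucleosomes in the difference was not tested.

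**Figure D3:**
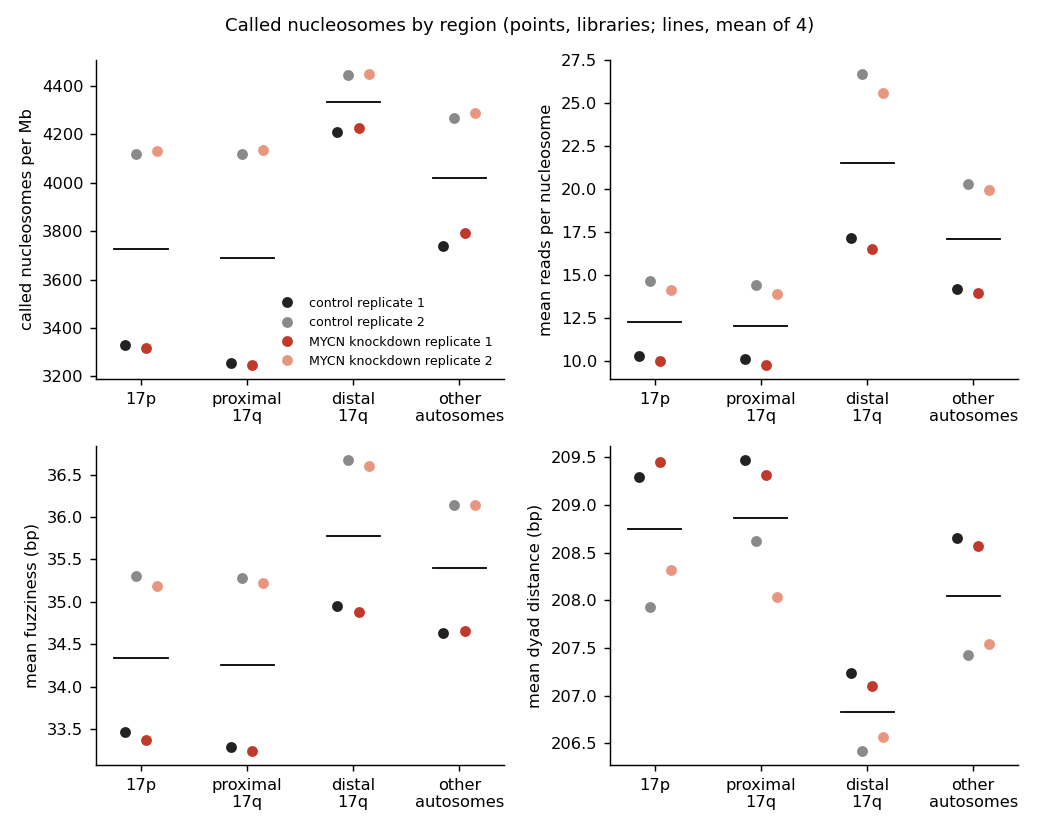
Called nucleosomes per Mb, mean reads per nucleosome, mean fuzziness (bp) and mean dyad distance (bp) on 17p, proximal 17q, distal 17q and the other autosomes. Points are the 4 libraries, lines their mean, and the axes do not start at 0. Proximal 17q sits with 17p in all 4 panels, and libraries of the same replicate number sit together.

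MYCN knockdown was then compared with control, to ask whether the occupancy of 17q moved with MYCN. The level of 17q was 1.41 ± 0.00279 in the control and 1.36 ± 0.00844 in the knockdown libraries (SD, n = 2 each). The groups did not overlap. The knockdown minus control difference was -0.0516, with -0.0556 between the replicate 1 libraries and -0.0476 between the replicate 2 libraries. With 2 libraries in each group there are 6 arrangements, and the exact permutation test, two-sided, gave the smallest possible p of 0.333. After GC correction the difference was -0.0153. On distal 17q alone it was -0.0593, and on proximal 17q, where the groups overlapped, -0.0257.

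With the group as the only term, no 100-kb bin of 17q passed the edgeR quasi-likelihood test of knockdown against control at an adjusted p under 0.05 (0 of 553). The background was the same, with 0% of the 28712 bins tested. The smallest adjusted p on 17q was 0.850. At an unadjusted p under 0.05 there were 70 bins on 17q (12.7%), 36 on 17p (16.2%) and 1613 in the genome (5.62%), and DESeq2 gave 0 bins adjusted and 82 unadjusted on 17q. The median log2 change was -0.053 on 17q, with 82.8% of bins negative, -0.036 on 17p and 0.00049 over all bins. Without TMM scaling the unadjusted counts were 91 of 553 on 17q, 19 of 222 on 17p and 2020 of 28712 in the genome. The share was then higher on 17q than on 17p. A fit without 1 library leaves 1 group with a single library, so its counts are left out here. The median log2 change of 17q stayed between -0.052 and -0.048 when a library was left out. That of 17p was -0.085 without control replicate 1 and 0.018 without control replicate 2. It was 0.014 without knockdown replicate 1 and -0.095 without knockdown replicate 2. The 3 bins of 17q that ranked first in the edgeR test held MYO18A, a myosin (log2 change -0.14), CASKIN2, LLGL2, MYO15B and TSEN54 (-0.15), and FOXN1, PIGS, RSKR, SLC13A2 and UNC119 (-0.13). In the MYO18A bin the reads were 4669 and 7270 in the control and 4210 and 6618 in the knockdown libraries, lower in knockdown at each replicate number. All 3 had GC contents of 52.5% to 56.2%, and after GC correction their log2 changes were -0.048, -0.055 and -0.037.

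The small difference on 17q moved with base composition. Pearson's r of the log2 change with GC content was -0.78 over the 553 bins of 17q, -0.79 over the 222 bins of 17p and -0.75 over 26208 bins of the other autosomes, given as a description over bins of the same 4 libraries. The 116 bins of 17q under 40% GC had a median log2 change of 0.0089, and the 126 bins of 50% or more had -0.093. The bins of the other autosomes had 0.028 and -0.087 in the same classes. In 5-Mb windows of 17q the change in log2 level ran from 0.0071 (50000001 to 55000000) to -0.093 (75000001 to 80000000), which had median GC contents of 37.5% and 53.4%. With GC correction the median change of 17q was -0.0088, 63.5% of bins were negative, and 2 bins had an unadjusted p under 0.05. Whether the relation with GC content arose in the cells or in the making of the libraries cannot be told apart with this design.

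**Figure D4:**
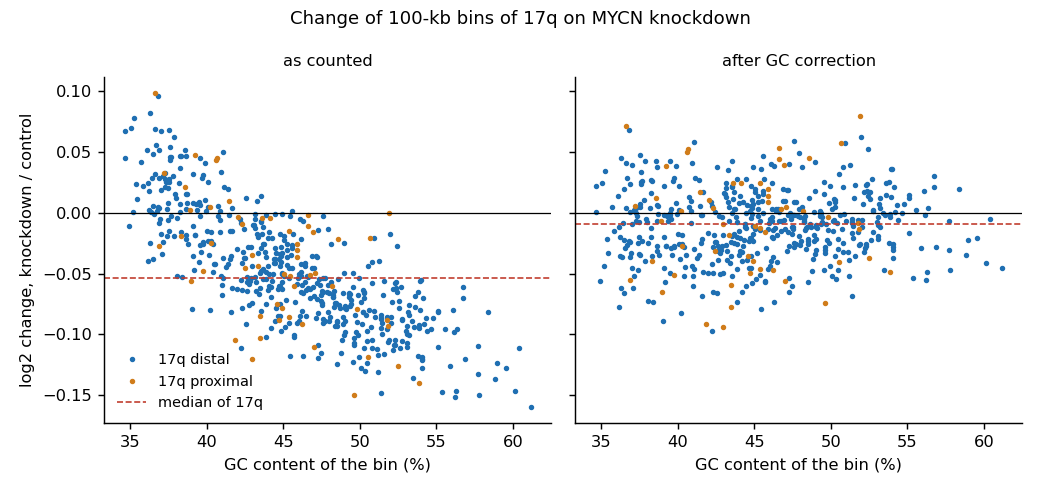
Log2 change (knockdown over control, edgeR) of the 553 bins of 17q against their GC content in percent, as counted and after GC correction. Points are 100-kb bins of distal (blue) and proximal (orange) 17q, and the dashed line is the median, -0.053 as counted and -0.0088 after correction. The bins slope downward as counted, with an r of -0.78. After correction r is 0.046 on 17q and -0.34 on 17p. The correction removes each library's median deviation at every GC percent over the genome, so a smaller r is built in and is no test.

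The other measures of 17q differed little between the groups. Mean fuzziness was 35.7 ± 1.22 bp in the control and 35.6 ± 1.22 bp in the knockdown libraries, and differed by -0.062 and -0.070 bp at replicate numbers 1 and 2 (exact permutation test, two-sided, p = 0.667). The mean read count per nucleosome was 21.1 ± 6.31 and 20.3 ± 6.00, and differed by -0.614 and -1.06 reads (exact permutation test, p = 0.667). Spacing was 207.0 ± 0.547 and 207.0 ± 0.380 bp, and differed by -0.148 and 0.0883 bp (exact permutation test, p = 1). In all 3 measures the spread between replicates, which differed in depth, was larger than the difference between groups.

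Positions were compared by pairing the nucleosomes of 2 libraries that were mutually closest and overlapped by at least 30 bp. On 17q, 13.1% of nucleosomes had no partner between the control replicates and 13.2% between the knockdown replicates. Between control and knockdown the share was 13.3% for the replicate 1 libraries, 11.1% for the replicate 2 libraries, and 13.2% and 13.1% for the crossed pairs. The shares between control and knockdown thus lay at or near those between replicates of a group, and the lowest was that of the deep pair. Dyads at the same base made up 1.35% to 1.64% of nucleosomes over these 6 pairs. The unpaired share between replicates was 22.0% on proximal 17q, 20.8% on 17p and 12.3% on distal 17q, higher where nucleosomes held fewer reads.

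Promoters were examined next, since the study concerned nucleosome assembly and eviction there. Promoters reached from 2 kb before the TSS to 1 kb after it, and 0 of 840 promoters of 17q passed the edgeR test at an adjusted p under 0.05, with 0% of 20106 promoters over the genome. At an unadjusted p under 0.05 there were 26 on 17q (3.10%) and 634 in the genome (3.15%), with 33 and 1085 without control replicate 2, and DESeq2 gave 0 adjusted and 10 unadjusted on 17q. Promoter read counts are given unscaled, replicate 1 before replicate 2. The smallest p-values belonged to SPAG9, a JNK scaffold protein (166 and 226 reads in control, 214 and 310 in knockdown, log2 change 0.45), AARSD1, an alanyl-tRNA editing protein (136 and 269, 211 and 309, 0.43), and CD300LB, a myeloid receptor (280 and 406, 186 and 337, -0.38). All had an adjusted p of 0.999 by edgeR.

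None of the 4 gene lists had a promoter past the test in either direction. The median log2 change was -0.0010 over 26 gain candidates, 0.062 over 12 DNA repair genes, -0.0080 over 15 chromatin genes and 0.027 over 10 HOXB genes, against -0.000063 over all promoters. Among gain candidates, 13 values were positive and 13 negative. The largest were those of AXIN2, a negative regulator of Wnt signalling (131 and 232 reads in control, 182 and 278 in knockdown, log2 change 0.39), and PHB1, a mitochondrial prohibitin (0.27). BIRC5 had 239 and 438 reads in the control and 251 and 348 in the knockdown libraries (-0.11), PPM1D 175 and 250 against 160 and 300 (0.13), and NF1 82 and 144 against 71 and 142 (-0.062). Between libraries of the same number, BIRC5 and PPM1D were higher in knockdown at one number and lower at the other, and NF1 was lower at both.

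Among the repair genes EME1, a subunit of a structure-specific nuclease, had 190 and 343 reads in the control and 236 and 399 in the knockdown libraries (0.30), and FAAP100, of the Fanconi anaemia core complex, had 284 and 400 against 236 and 313 (-0.27). BRCA1 (0.14) and BRIP1 (0.12) lay between them. The 12 values ran from -0.32 to 0.30, with 8 positive and 4 negative. Of the chromatin genes PHF12 had -0.28, on 64 and 79 reads in the control and 36 and 85 in the knockdown libraries, and CBX8, a Polycomb subunit, -0.24. In the HOXB cluster the extremes were HOXB2 (0.26) and HOXB13 (-0.25). All of these values had adjusted p-values of 0.999 by edgeR.

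Nucleosome-free regions (NFRs) were then counted. A promoter had an NFR in a library when no nucleosome lay at least 80% between 200 bp before and 50 bp after the TSS. On 17q this held for 58.7% and 51.7% of promoters in the control and 60.4% and 52.0% in the knockdown libraries, so the share was lower in both deep libraries. On 276 of 840 promoters (32.9%) the NFR was present in all 4 libraries. The share was 43.6% on proximal 17q (34 of 78), 31.8% on distal 17q (242 of 762), 44.1% on 17p and 32.0% on the other autosomes. The share was thus higher in the low segment, where nucleosomes held fewer reads, and the difference was not tested.

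Of 348 promoters of 17q with an NFR in both control libraries, 17 (4.89%) lacked it in both knockdown libraries. Of 361 with an NFR in both knockdown libraries, 14 (3.88%) lacked it in both control libraries. These shares were 5.34% and 5.78% on the other autosomes and 0.575% and 3.63% on 17p, and the differences were not tested. Among listed genes, TBX2, JMJD6, a JmjC-domain hydroxylase, and POLG2, the accessory subunit of the mitochondrial DNA polymerase, were in the group of NFR loss, and HOXB2 in that of NFR formation. TBC1D3K and TBC1D3F, annotated on nearly the same bases, both counted as formation. The promoter read counts in control against knockdown were 214 and 250 against 166 and 292 for TBX2 and 172 and 302 against 161 and 322 for JMJD6, with opposite signs at the 2 replicate numbers. They were 193 and 264 against 164 and 230 for POLG2, lower at both numbers, and 200 and 328 against 231 and 386 for HOXB2, higher at both.

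The average promoter of 17q showed the usual arrangement. In distal 17q, dyad reads dropped to 0.436 and 0.403 of the level 800 to 1000 bp away in the control and to 0.488 and 0.456 in the knockdown libraries, within 50 bp upstream of the TSS. They peaked at 1.63 to 1.78 of that level, 100 to 150 bp downstream, where the +1 nucleosome lies. On proximal 17q the minimum was 0.237 to 0.354 and the maximum 1.73 to 2.03, over 78 promoters at lower read counts. On 17p the minimum was 0.365 to 0.417 and the maximum 1.501 to 1.89. The curves of single libraries crossed in all 3 parts, and in control replicate 1 the highest point of proximal 17q lay 200 bp upstream.

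**Figure D5:**
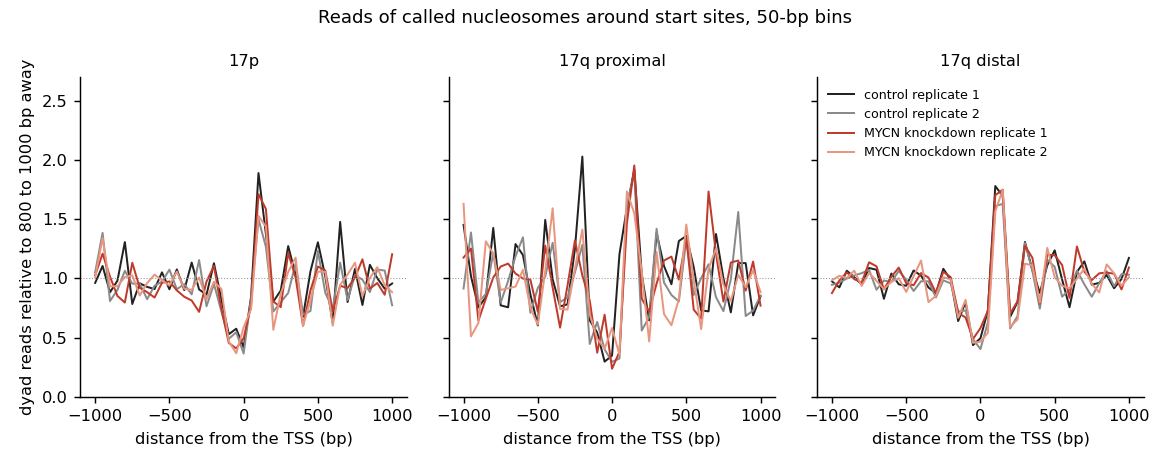
Dyad reads of called nucleosomes in 50-bp bins around the TSS of protein-coding genes on 17p, proximal 17q and distal 17q, relative to the mean 800 to 1000 bp away, against the distance from the TSS in bp. Each line is a library. A trough at the TSS and a peak 100 to 150 bp downstream are seen in distal 17q in all 4 libraries, with minima of 0.403 to 0.488, and the proximal curves vary more between neighbouring bins.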

How the data were processed

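Per the submitters' processing notes, reads were handled with CASAVA 1.9, Trim Galore 0.4.4 and Bowtie2 2.2.4 on hg19. The authors kept proper pairs of mapping quality above 10, removed duplicates with Samtools and called nucleosomes in Genetrack from read-pair midpoints. The deposited table holds, for each nucleosome, a whole-number read count of at least 6, since the authors removed lower ones. The study's methods call this occupancy a normalized count. The values are whole and their totals differ between libraries, so they were treated as counts, and a scaling by the authors before rounding cannot be told apart from them. The deposited fuzziness is a score in bp, the standard deviation of midpoints around the dyad.

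Here dyads were taken as start plus 73, and counts were summed in bins and promoters on GRCh37 with GENCODE genes. All chromosome ends fitted that build. GC correction divided levels by the median of autosomal bins of the same GC percent. edgeR 4.0.16 (R 4.3.3) was run where the mean count reached 10 reads, with TMM scaling, the group only and Benjamini-Hochberg adjustment over the genome, and DESeq2 1.42.0 was an alternative. On simulated data with 200 changed features, edgeR recovered 82% of 1.25-fold changes among 100-kb bins and 15% among promoters. The simulation kept the library totals, gave all features the same dispersion and held no effect of replicate number or GC content. Recovery in the real libraries was not measured. Segments had at least 1 Mb and a penalty factor of 3. The study calls the replicates biological, and p-values measure the spread between these libraries. Named genes came from 4 lists, from the step, and from the 3 highest, lowest or most changed bins, promoters and sharpest nucleosomes. The segment before the step, and the 3 lowest bins beyond it, were added after seeing the data. Members and lists were chosen with earlier results of these data known. Some named genes and sequences are not reported here.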

Additional observations from a re-analysis of the deposited data

How the results depend on the processing

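Across 14 results and 102 alternatives, 90 were counted as the same, 7 as reversed, 3 as stronger and 2 as moved. The 90 include unpaired shares of -1.12 to 0.129 percentage points against a main value of -0.463, so their sign was not always kept. The step stayed at 31200001 without each library in turn, with a penalty factor of 10 and after GC correction, and lay at 31230001 in 10-kb bins. The 17q minus 17p differences in level, nucleosomes per Mb, read count, fuzziness and spacing kept their sign in every alternative run. Labels share replicate numbers but do not say that a number marks a shared culture, and there are only 2 pairs. With a replicate block, 266 of 553 bins of 17q passed the edgeR test (9 up, 257 down), as did 5492 of 28712 in the genome, against 0 without it. With GC correction and the replicate block 7 passed (210 in the genome), and in 10-kb bins (chosen after seeing the data) 7 passed with the replicate block (88 of 284467 in the genome) and 0 with GC correction and the replicate block (2 in the genome). Changes between replicates correlated between the groups across 17q bins (r = 0.86) and across all bins (r = 0.78), and depth moves with the number. Leaving out 1 library in turn makes the groups unequal in depth. The knockdown minus control difference then ran from -5.30 to 3.63 reads per nucleosome, from -0.929 to 0.797 bp in fuzziness and from -0.417 to 0.357 bp in spacing. The first 2 turned positive without control replicate 2 and without knockdown replicate 1, and spacing did so without control replicate 1 and without knockdown replicate 2. Spacing with nucleosomes of at least 12 reads gave 0.0489 bp. The mean share of 17q promoters with an NFR was 55.7% ± 4.49 (SD, n = 4) and 36.4% when 50% of a nucleosome in the window sufficed. NFR loss and formation on 17q then numbered 14 and 7. The share of unpaired nucleosomes between groups minus that between replicates was -0.463 percentage points, and -2.38 with nucleosomes of at least 12 reads. It was -1.12 without control replicate 1 and -0.919 without knockdown replicate 1, and turned positive without control replicate 2 (0.0618) and without knockdown replicate 2 (0.129). The replicate pairs, like the crossed pairs, join a shallow and a deep library, whereas same-number pairs are alike in depth. On 17q the mean unpaired share was 13.14% for crossed pairs, 13.14% for replicate pairs and 12.22% for same-number pairs. Depth limits what can be said of nucleosomes of few reads on 17p and proximal 17q, and 2 libraries a group allow no p under 0.333 for a single value.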
